A study of Mus musculus with 15 samples.

Results

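Gene expression after combined stimulation with IL-33 and IL-13 was compared with that of untreated cultures of primary mouse lung fibroblasts. The comparison used the 3 libraries labelled IL-33/13 and the 3 labelled untreated, 6 of the 15 libraries of the series. Genes were tested when they reached 1 TPM (reads scaled for gene length and for the library total) in at least 3 of these 6 libraries, which kept 13261 of 18078 genes and left out 4817. All cells were wild type, of the mouse strain BALB/cJ, and were sampled at 20 h. The IL-33/13 cultures received both cytokines as recombinant proteins and the untreated cultures received neither; the sources used here give neither the doses nor the animals or cultures behind each library. The 3 libraries with IL-33 alone, of the same strain and time, were set beside them. The remaining 6 libraries (IL-33 with IL-17A, and IL-33 with IL-13 and IL-17A) entered only through the shared estimate of the spread.

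IL-33, a relative of IL-1, is set free when barrier cells are injured. It binds ST2, encoded by Il1rl1, together with the accessory chain Il1rap, and signals through MyD88 to NF-kB and MAP kinases. IL-13 is the type 2 cytokine of allergic inflammation and binds IL-13Ra1 paired with IL-4Ra, which signals through JAK kinases to STAT6. Lung fibroblasts make the matrix of the organ, and as a source of chemokines they also direct which leukocytes enter it.

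The promoters of some of the genes that changed most are shown first, with matches to motifs of the NF-kB and STAT families marked. The windows run from 250 bases before to 50 after the RefSeq start site nearest to the gene start in the files, on GRCm38.p6, the reference sequence rather than that of BALB/cJ, written 5′ to 3′ on the strand of the gene. Capitals mark matches on either strand to a kB motif (GGG, 2 free bases, TTTCC) or to the STAT motifs (TTCNNNGAA, and the same with 4 free bases); no matches overlap in the windows shown. Cxcl1, Cxcl2 and Cxcl3 encode neutrophil chemokines and lie near one another on chromosome 5. Cish encodes a feedback inhibitor of cytokine receptors and Il13ra2 the decoy receptor of IL-13. The windows are chr5:90890995-90891294 (+) for Cxcl1, chr5:90903649-90903948 (+) for Cxcl2, chr5:90785851-90786150 (+) for Cxcl3, chr9:107296409-107296708 (+) for Cish and chrX:147429143-147429442 (-) for Il13ra2.
Cxcl1: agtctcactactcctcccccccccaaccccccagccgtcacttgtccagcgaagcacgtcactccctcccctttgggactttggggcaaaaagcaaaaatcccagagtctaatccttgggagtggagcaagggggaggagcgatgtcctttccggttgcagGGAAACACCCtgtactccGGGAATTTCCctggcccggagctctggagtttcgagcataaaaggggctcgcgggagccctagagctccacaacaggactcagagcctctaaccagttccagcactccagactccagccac
Cxcl2: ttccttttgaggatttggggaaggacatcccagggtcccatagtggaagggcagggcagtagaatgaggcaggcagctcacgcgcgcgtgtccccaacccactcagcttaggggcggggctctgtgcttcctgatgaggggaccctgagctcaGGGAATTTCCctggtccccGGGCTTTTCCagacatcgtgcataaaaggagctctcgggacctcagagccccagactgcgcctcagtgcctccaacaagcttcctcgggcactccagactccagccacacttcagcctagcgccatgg
Cxcl3: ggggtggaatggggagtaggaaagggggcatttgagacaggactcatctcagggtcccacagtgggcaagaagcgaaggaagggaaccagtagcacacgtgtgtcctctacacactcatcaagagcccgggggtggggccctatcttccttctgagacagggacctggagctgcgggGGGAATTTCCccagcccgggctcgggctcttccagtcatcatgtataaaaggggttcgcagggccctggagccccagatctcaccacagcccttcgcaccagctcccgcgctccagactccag
Cish: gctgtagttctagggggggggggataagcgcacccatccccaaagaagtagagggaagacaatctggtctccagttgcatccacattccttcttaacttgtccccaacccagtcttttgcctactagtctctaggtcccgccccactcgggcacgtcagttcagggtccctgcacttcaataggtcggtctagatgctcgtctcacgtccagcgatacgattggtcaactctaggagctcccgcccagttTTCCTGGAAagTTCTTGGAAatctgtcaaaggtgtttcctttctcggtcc
Il13ra2: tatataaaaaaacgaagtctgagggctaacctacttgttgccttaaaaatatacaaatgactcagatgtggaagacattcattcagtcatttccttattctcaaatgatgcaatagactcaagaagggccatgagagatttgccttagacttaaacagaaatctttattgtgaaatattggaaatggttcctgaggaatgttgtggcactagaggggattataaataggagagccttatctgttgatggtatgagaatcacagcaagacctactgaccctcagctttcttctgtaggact

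The Cxcl1, Cxcl2 and Cxcl3 windows each held the kB match GGGAATTTCC, which began 71, 97 and 73 bases before the start site, in that order of genes, and Cxcl1 and Cxcl2 each held a second match. Cish held a pair of STAT matches, TTCCTGGAA at its start site and TTCTTGGAA 11 bases after it. This RefSeq start site of Cish lay 633 bases from the start given in the files. The Il13ra2 window held neither kind of motif, and no window shown held the STAT motif with 4 free bases. Over the 9531 tested genes with a window, 1.64% held the kB motif, 6.57% the STAT motif with 3 free bases and 5.24% the one with 4. Among the 15 genes that rose most, 11 had a window, and the kB motif was in those of Cxcl1, Cxcl2, Cxcl3 and Serpina3g, and a STAT motif in those of Serpina3g, Serpinb2 and Lcn2. Among the 15 that fell most, 12 had a window and none of the motifs was found. Of the genes called at least 2-fold higher with IL-33/13, 173 had a window and 15 (8.67%) held the kB motif; of those called at least 2-fold lower, 0 of 171 did. The STAT motif with 3 free bases was in 9.25% of the windows of genes at least 2-fold higher and in 5.26% of those at least 2-fold lower, and the one with 4 in 8.67% and 2.92%. A match describes letters only and is not evidence of binding.

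Reads recovered from the deposited values came to 12424814 to 12800695 per IL-33/13 library and 10554596 to 12087146 per untreated library. Fibroblast transcripts were abundant in all 6 libraries, and so were macrophage transcripts. The summed TPM of 16 fibroblast markers was 10870 to 11210 with IL-33/13, against 14120 to 15460 in untreated cultures. That of the 21 macrophage markers in the files was 17550 to 17780 against 19050 to 19350, with none of the 21 at 0 throughout either group. Both sums rest on TPM per gene span, introns included, so the fibroblast and macrophage levels cannot be compared with each other. Lyz2, the lysozyme of myeloid cells, had 8903, 8718 and 8808 TPM with IL-33/13 and 10100, 10470 and 10330 TPM in untreated cultures. In such bulk RNA, fewer cells of a type and less RNA per cell cannot be told apart. The mitochondrially encoded share of TPM was 3.94%, 3.69% and 4.02% with IL-33/13 and 6.03%, 6.404% and 6.14% in untreated cultures. Neither these sums nor this share overlapped between the groups, and each difference had the smallest p that 3 libraries against 3 allow (exact permutation test, two-sided, p = 0.1). Of the other 9 libraries, 3 also had a low mitochondrial share (3.91% to 4.09%, IL-33/17A replicates 2 and 3 and replicate 1 of the combination of all 3 cytokines), and together with the IL-33/13 libraries they form a set of 6. Within the comparison, that set and the treatment cannot be told apart. The 3 libraries with IL-33 alone had shares of 5.02% to 5.74%, outside the set. In the comparison with IL-33, the set thus cannot be told apart from added IL-13 either. A fit with a term for the set, estimated from the groups that hold both kinds of library, is given beside lists whose counts it moved by more than 2 genes.

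**Figure D1:**
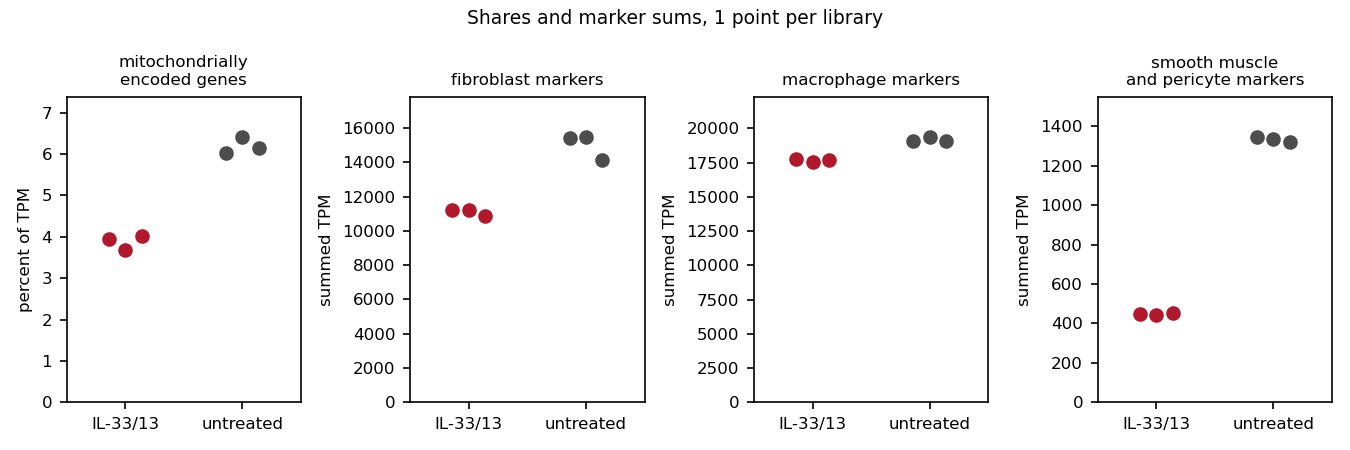
Share of TPM of mitochondrially encoded genes (percent) and summed TPM of fibroblast, macrophage, and smooth muscle and pericyte markers, 1 point per library, IL-33/13 left and untreated right, with axes from 0. The 3 IL-33/13 libraries lie below all 3 untreated libraries in each panel, with the widest relative gap in the smooth muscle and pericyte markers (442.9 to 454 against 1319 to 1344 TPM).

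A large share of the genes differed between the IL-33/13 and the untreated libraries. At an adjusted p under 0.05 in limma, 6874 of 13261 tested genes (51.8%) were called, 1983 (15%) higher and 4891 (36.9%) lower with IL-33/13. The median change of all tested genes was -0.12 on the log2(TPM + 1) scale, and since each library sums to the same total, a slight fall of most genes and a rise of a few abundant ones cannot be told apart. With median-ratio scaling the median was 0.01 and the split was 3350 higher (25.3%) and 3050 lower (23%). Reads tested with voom gave 3290 higher and 3284 lower (24.8% each), and the set term 1277 higher (9.63%) and 2296 lower (17.3%). Changes of at least 2-fold were fewer, 283 higher (2.13%) and 271 lower (2.04%), and 356 (2.68%) and 182 (1.37%) with median-ratio scaling. Such calls numbered 452 higher (3.41%) and 322 lower (2.43%) on reads, and 253 (1.91%) and 199 (1.5%) with the set term. On the deposited scale, 54 of the 283 and 37 of the 271 reached 1 TPM in 1 group only. These genes had to differ to be tested, as did 277 of all 13261 tested genes. The 3 libraries of one group lay wholly above or below those of the other in 2551 genes higher (19.2%) and 5846 lower (44.1%).

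**Figure D2:**
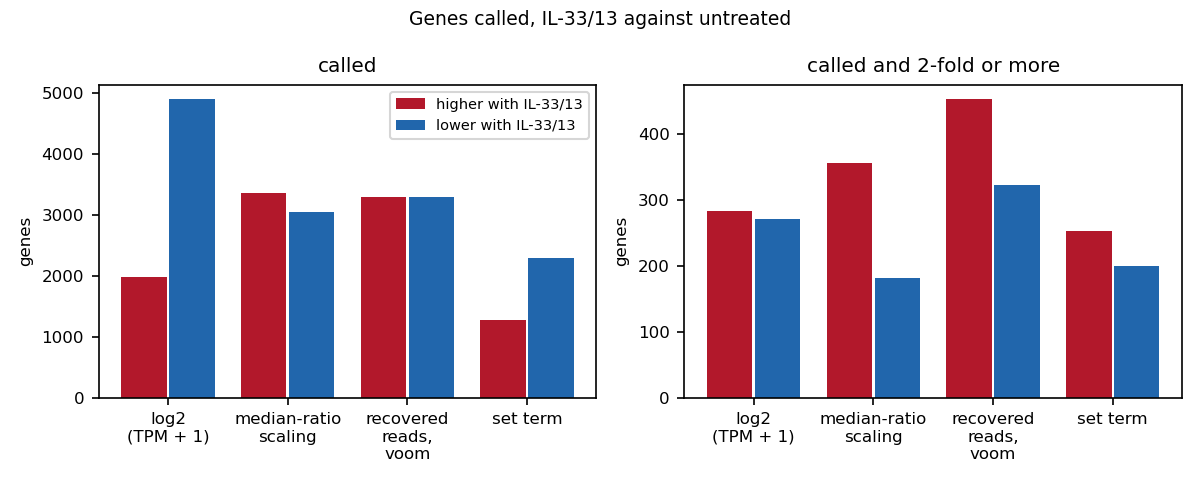
Number of genes called higher or lower with IL-33/13 than in untreated cultures (left) and of those called with a change of 2-fold or more (right), on the deposited scale, with median-ratio scaling, on recovered reads and with the set term. The excess of lower calls on the deposited scale (4891 against 1983 higher) was absent with median-ratio scaling and on reads.

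Neutrophil chemokines and granulopoietic factors rose most. All 12 tested members of that list were called higher with IL-33/13 and all by at least 2-fold, with a median change of 5.22 against -0.12 over all tested genes. Csf3, Csf2 and Lcn2 reached 1 TPM only with IL-33/13 and so had to differ to be tested; the other 9 were all called higher too, with a median of 5.24. Cxcl1 (chromosome 5, 90891241 to 90893115, mm10), whose product attracts neutrophils through CXCR2, had 1478, 1471 and 1582 TPM with IL-33/13 and 10.6, 6.05 and 10.8 TPM in untreated cultures. Cxcl5, an epithelial and stromal chemokine for the same receptor, had 2858, 2679 and 2724 TPM against 22.4, 26.5 and 22.99 TPM. The log2 changes were 7.26 ± 0.15 for Cxcl1 (SE, adjusted p 3e-12) and 6.79 ± 0.07 for Cxcl5 (adjusted p 4.9e-15). Cxcl3 and Cxcl2, whose kB matches are shown above, followed with changes of 6.07 ± 0.11 and 5.45 ± 0.24. In every one of these genes the lowest IL-33/13 library lay far above the highest untreated one.

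Lcn2, the siderophore-binding protein lipocalin-2, had 371, 350.6 and 379 TPM with IL-33/13 and 0.274, 0.627 and 0.294 TPM in untreated cultures, the largest change on the log2(TPM + 1) scale (8.05 ± 0.10, adjusted p 2.8e-14), a size that depends on the pseudocount. The untreated values rest on 4 reads in all, against 4600 with IL-33/13, a ratio of 1033 per library total (95% exact interval 403 to 3794, counting error only). Csf3, the growth factor of granulocytes, had 34.5, 44.3 and 41.8 TPM with IL-33/13, and a single read in the 3 untreated libraries together. Its ratio of reads was 297 (52.8 to 11746). Csf2, which acts on granulocytes and macrophages, had 117 reads against 1, a ratio of 105 (18.5 to 4187). Saa3, an acute phase apolipoprotein, had 1724, 1788 and 1651 TPM with IL-33/13 and 38.9, 40.4 and 55.7 TPM in untreated cultures (5.24 ± 0.10, adjusted p 1.3e-12). S100a8, a neutrophil and myeloid marker, also rose, with 71.0 to 77.4 TPM against 15 to 20.7 TPM (2.06 ± 0.13, adjusted p 1.2e-07). The 6 genes of its list in the files summed to 75.0 to 83.2 TPM with IL-33/13 and 24.6 to 30.8 TPM in untreated cultures. The other tested members, Csf3r and Ccr3, fell by 0.75 and by 0.68. Ccr3 reached 1 TPM only in untreated cultures and so had to differ to be tested. The part of cells with these markers in the rise of the chemokines was not tested.

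**Figure D3:**
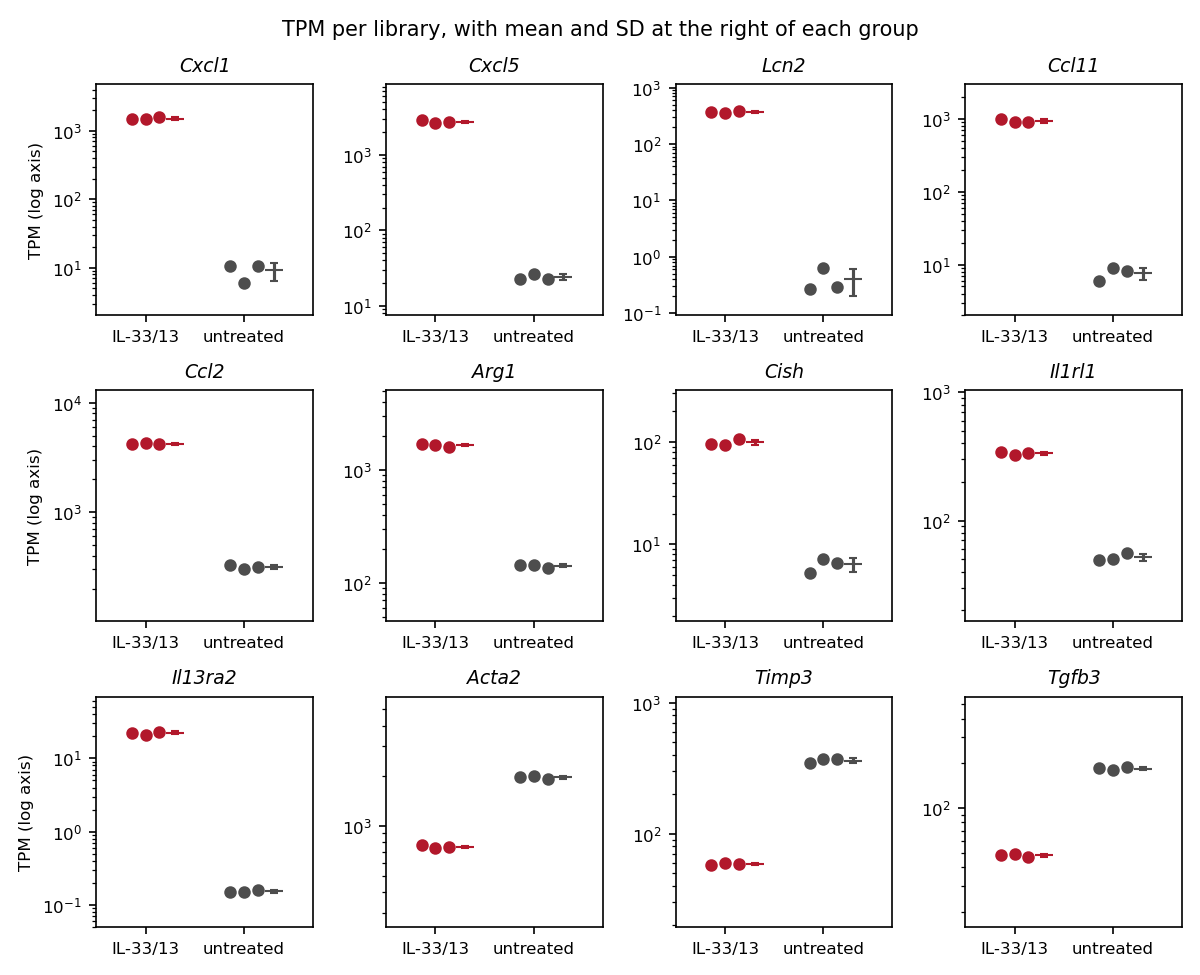
TPM per library on log axes for 12 genes, IL-33/13 left and untreated right in each panel, with the group mean and SD (n = 3) to the right of the points. In all 12 genes the libraries of the groups do not overlap; Acta2, Timp3 and Tgfb3 are lower with IL-33/13 and the other 9 are higher.

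Of the 12 neutrophil factors, 10 were called higher than with IL-33 alone and 1 lower, with a median difference of 0.66. The size of the gap varied between genes. Cxcl1 averaged 1510 ± 62.3 TPM with IL-33/13 and 1103 ± 73.6 TPM with IL-33 (SD, n = 3 each), a difference of 0.45 ± 0.15 (SE, adjusted p 0.033). Lcn2 averaged 366.8 ± 14.5 and 274 ± 10.8 TPM, a difference of 0.42 (adjusted p 0.0091). The gap was wider for Cxcl3, at 181 ± 7.12 TPM with IL-33/13 and 33.2 ± 0.456 TPM with IL-33 (2.41, adjusted p 1.9e-08), and for Csf3, at 40.2 ± 5.09 and 15.4 ± 1.02 TPM (1.33, adjusted p 1.4e-05). Saa3 (-0.24, adjusted p 0.086) and Il1a (0.38, adjusted p 0.15) did not pass the test of IL-33/13 against IL-33. The background of that test was 1394 genes higher (10.5%) and 3135 lower (23.6%), of which 141 (1.06%) and 63 (0.475%) by at least 2-fold. It shares the IL-33/13 libraries with the comparison against untreated cultures, so the 2 sets of changes are not independent.

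Among lists with at least 10 tested members, the STAT6 response list had the next largest median. Most of its members were also higher than with IL-33 alone. Of 24 tested members, 21 were called higher with IL-33/13 and 1 lower (Bcl6), with 15 at least 2-fold higher and a median of 1.47. For 5 of the 24 (Il13ra2, Ccl24, Chil3, Retnla and Clec10a), 1 TPM was reached only with IL-33/13, so that they had to differ to be tested. Of the other 19, 16 were higher and 1 lower, with a median of 1.10. In each other list described here, 0 to 3 tested members reached 1 TPM in 1 group only. Against IL-33 alone, 21 were higher and 2 lower, with a median of 1.07. Ccl11 (chromosome 11, 82057823 to 82062955), which encodes the eosinophil chemokine eotaxin-1, had 997, 912.9 and 923 TPM with IL-33/13 and 5.998, 8.84 and 8.08 TPM in untreated cultures. It averaged 944 ± 46.1 TPM with IL-33/13 and 55.0 ± 9.29 TPM with IL-33. The log2 change was 6.79 ± 0.13 against untreated (adjusted p 1.3e-12) and 4.09 against IL-33 (adjusted p 1.2e-09). Ccl11 had no window among the promoter sequences used here.

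Cish (chromosome 9, 107296026 to 107302784) had 96.2, 94.8 and 106.6 TPM with IL-33/13 and 5.29, 7.20 and 6.60 TPM in untreated cultures, and 13.3 ± 0.799 TPM with IL-33. It rose by 3.77 ± 0.10 against untreated and was 2.81 above IL-33 (adjusted p 1.8e-11 and 2.1e-09). The related suppressors Socs1 and Socs3, which damp JAK signalling, rose by 2.09 and 1.85. Serpinb2, a plasminogen activator inhibitor, had 172, 169 and 169 TPM against 3.84, 3.49 and 4.41 TPM (5.13 ± 0.07, adjusted p 2.9e-14). Postn, which encodes the matrix protein periostin, had 389, 376.5 and 395 TPM with IL-33/13 and 226, 237 and 240.4 TPM in untreated cultures (0.72 ± 0.07, adjusted p 7.1e-06). Postn was also above IL-33 alone (0.81, adjusted p 8e-06).

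The receptors of both cytokines moved unequally. Il1rl1, the ST2 chain that binds IL-33, had 345, 327 and 335 TPM with IL-33/13 and 49.0, 50.4 and 55.4 TPM in untreated cultures (2.68 ± 0.08, adjusted p 8.1e-11). With IL-33 alone it averaged 65.2 ± 8.23 TPM, and the difference from IL-33/13 was 2.35 (adjusted p 1.8e-09). The values do not separate the membrane-bound from the soluble form of ST2. Il13ra2 (chromosome X, 147383476 to 147429192) had 22.5, 21.1 and 23.2 TPM with IL-33/13 and 0.152, 0.149 and 0.163 TPM in untreated cultures (4.33 ± 0.09, adjusted p 3.5e-12), and 2.91 ± 0.377 TPM with IL-33. The signalling chain Il13ra1 had 12.6, 12.2 and 12.8 TPM against 12.4, 12.4 and 13.9 TPM and missed the threshold (-0.04 ± 0.07, adjusted p 0.68; the sign turned to 0.10 with median-ratio scaling). Il4ra rose slightly (0.18, adjusted p 0.0014). Il1rap, the shared chain of IL-1 family receptors, rose by 0.53 and Jak1 fell by 0.37. Of the 16 tested receptor and signalling genes, 6 were higher and 6 lower, and with median-ratio scaling 6 were higher and 4 lower. With the set term 7 were higher and 3 lower. Over all tested genes, 15% were higher and 36.9% lower on the deposited scale.

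Most IL-1 family genes rose, 9 of 10 tested members being higher and 1 lower (median 0.82; Il1rl1, described above, is among them). Il1a had 31.5, 36.8 and 35.8 TPM with IL-33/13 and 1.05, 0.985 and 0.205 TPM in untreated cultures (4.39 ± 0.19, adjusted p 3.6e-09). Il33 itself had 18.9, 16.6 and 17.4 TPM against 4.66, 4.40 and 4.30 TPM (1.77 ± 0.11, adjusted p 8.8e-08). Il1b rose against untreated (1.59, adjusted p 3.5e-06) but was below IL-33 alone (-0.50, adjusted p 0.022).

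Among factors that act on monocytes and macrophages, 20 of 26 tested were higher and 4 lower, with 13 at least 2-fold higher and a median of 0.94. Ccl2, the main monocyte chemokine, had 4181, 4309 and 4170 TPM with IL-33/13 and 331, 302 and 313 TPM in untreated cultures (3.74 ± 0.08, adjusted p 2.2e-12), and was 1.02 above IL-33. Ccl7 rose by 2.35 and Ccl5 by 1.78. Lif rose by 4.37 ± 0.07 (252, 264 and 254 against 12.1, 10.01 and 12.4 TPM), Osm by 3.30 ± 0.08 and Il6 by 3.08 ± 0.08. Il6 had 412, 389 and 401 TPM with IL-33/13 and 46.1, 44.6 and 48.9 TPM in untreated cultures. Csf1, the survival factor of macrophages, rose by 0.42 against untreated, and stood 0.49 above IL-33 (adjusted p 6.8e-07). Cx3cl1 fell by 0.48 (adjusted p 0.0032), and with the set term its adjusted p was 0.16. Levels of different factors were compared per exon length rather than gene span, over the 38 tested genes of the neutrophil, monocyte and eosinophil lists. On that scale Spp1 (osteopontin, 8034 TPM), Ccl7 (2521 TPM), Ccl2 (2341 TPM), Mif (2001 TPM), Ccl11 (1502 TPM) and Cxcl5 (1123 TPM) were highest with IL-33/13. In untreated cultures Spp1 had 10210 TPM and Mif 1547 TPM, while Ccl11 had 11.8 TPM and Cxcl5 9.48 TPM. Spp1 and Mif were named after their values were seen.

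Arginine metabolism changed at several steps. Arg1, the arginase that splits arginine into ornithine and urea, had 1687, 1677 and 1611 TPM with IL-33/13 and 143, 144 and 136 TPM in untreated cultures (3.55 ± 0.05, adjusted p 5.3e-14), and 603 ± 18.3 TPM with IL-33. Slc7a2, an arginine transporter, had 76.2 to 79.2 TPM against 6.86 to 7.61 TPM (3.28 ± 0.05), and Ass1, which makes the precursor of arginine, rose by 2.31 ± 0.06. Nos2, which turns arginine into nitric oxide, had 6.89, 6.57 and 7.57 TPM with IL-33/13 and 0.0503, 0.0862 and 0.135 TPM in untreated cultures. The untreated values rest on 10 reads in all, against 958 with IL-33/13. Nos2 reached 1 TPM only with IL-33/13 and so had to differ to be tested. It was below IL-33 alone (-0.70, adjusted p 1.1e-05), whereas Arg1 was above it (1.46, adjusted p 1.7e-09). Of the 22 tested genes of the list, 9 were higher, 7 of them at least 2-fold, and 10 lower, none by 2-fold. With the set term 10 were higher and 5 lower. The shares over all tested genes were 15% higher and 36.9% lower on the deposited scale. Arg1 and Nos2 are expressed by macrophages as well, and the part of those cells in these changes was not tested.

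Markers of macrophages themselves moved in both directions, 5 of 20 higher and 13 lower, and 6 higher and 6 lower with median-ratio scaling. With the set term 3 were higher and 9 lower. Of all tested genes, 15% were higher and 36.9% lower on the deposited scale. Those shares were 25.3% and 23% with median-ratio scaling, and 9.63% and 17.3% with the set term. Mrc1, the mannose receptor of alternatively activated macrophages, had 142.5, 147 and 147 TPM with IL-33/13 and 50.4, 54.0 and 49.6 TPM in untreated cultures (1.49 ± 0.06, adjusted p 1.5e-09). Cx3cr1, the fractalkine receptor, had 0.0665, 0.117 and 0.137 TPM against 5.04, 4.79 and 5.27 TPM (-2.45 ± 0.07, adjusted p 8.1e-11), and Aif1 fell by 2.0. Cx3cr1 reached 1 TPM only in untreated cultures and so had to differ to be tested. Clec12a and Tlr9, receptors of myeloid cells, fell by 2.37 and 2.43.

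The retinoid list was led by a gene that stood apart from IL-33 alone too. Aldh1a3 (chromosome 7, 66390890 to 66427517), which makes retinoic acid from retinaldehyde, had 43.9, 45.2 and 42.2 TPM with IL-33/13 and 1.06, 0.836 and 0.638 TPM in untreated cultures (4.61 ± 0.11, adjusted p 6.4e-12). With IL-33 it averaged 0.792 ± 0.295 TPM, so that its difference from IL-33/13 was 4.66 (adjusted p 6.7e-11). Msx3, a homeobox gene, followed the same pattern, with 35.5, 41.9 and 39.2 TPM with IL-33/13, 0.339, 0.387 and 0.725 TPM in untreated cultures and 0.234 ± 0.203 TPM with IL-33. Its reads were 395 against 4, a ratio of 88.7 (34.4 to 327), and it stood 5.02 above IL-33 (adjusted p 4.9e-10). Msx3 reached 1 TPM only with IL-33/13 and so had to differ to be tested. Crabp1, which binds retinoic acid in the cell, rose by 1.27 and Cyp26b1, which degrades retinoic acid, by 0.67. In all, 7 of 13 tested members were higher and 2 lower.

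**Figure D4:**
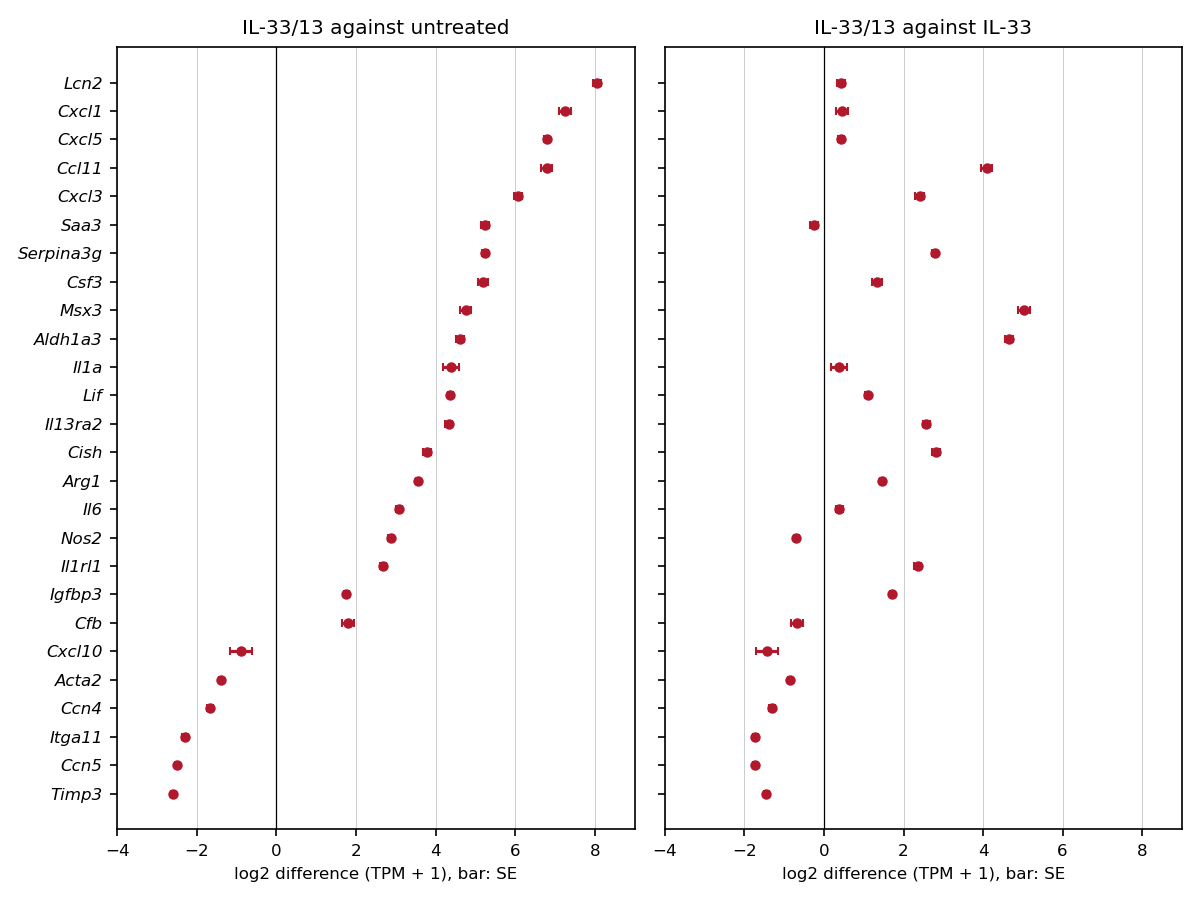
Log2 differences on the log2(TPM + 1) scale with their standard errors for 26 genes, IL-33/13 against untreated (left) and against IL-33 (right). Msx3, Aldh1a3 and Ccl11 differ by 4.09 or more in both panels, and Lcn2, Cxcl1 and Cxcl5 by 0.45 or less against IL-33. Nos2, Cfb and Saa3 are among the genes above 0 on the left and below 0 on the right, though Saa3 was not called against IL-33.

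NF-kB feedback genes rose in part, 18 of 28 higher and 2 lower with a median of 0.54. Zc3h12a, the ribonuclease Regnase-1 that limits cytokine mRNAs, had 108 to 110.4 TPM against 12.8 to 14.7 TPM (2.92 ± 0.05, adjusted p 6.7e-13). Sod2, the mitochondrial superoxide dismutase, rose by 2.10 ± 0.04. Against IL-33 alone, 8 of the 28 were higher and 9 lower. Of 18 genes of prostaglandins and other eicosanoids 10 were higher and 6 lower (median 0.29), and 9 higher and 3 lower with the set term. The shares over all tested genes were 15% higher and 36.9% lower on the deposited scale. Ptgs2 (cyclooxygenase-2) had 1597, 1555 and 1614 TPM with IL-33/13 and 535, 533.5 and 549 TPM in untreated cultures (1.56 ± 0.05). Ptges, the synthase of prostaglandin E2, rose by 2.27 ± 0.03 and Ptgir, the prostacyclin receptor, by 2.01 ± 0.14. Hpgd, which inactivates prostaglandins, fell by 1.45 ± 0.11. It reached 1 TPM only in untreated cultures and so had to differ to be tested. Complement C3 rose by 2.44 and Cfb by 1.79, while C4b fell by 0.79.

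Of 24 tested metalloproteinases and their inhibitors, 9 were higher with IL-33/13 and 11 lower, beside 15% higher and 36.9% lower over all tested genes. Mmp3 had 687, 641 and 670 TPM with IL-33/13 and 73.0, 62.5 and 72.4 TPM in untreated cultures (3.25 ± 0.07, adjusted p 1.9e-12). Mmp9 (3.91 ± 0.05), Mmp10 (3.58 ± 0.09) and the collagenase Mmp13 (3.23 ± 0.08) rose likewise. Timp3, the matrix-bound inhibitor of metalloproteinases, had 57.8, 59.3 and 59.2 TPM against 344, 370.2 and 372 TPM (-2.60 ± 0.06, adjusted p 5.4e-12), and 162 ± 5.75 TPM with IL-33.

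Contractile genes fell. Of 24 tested genes of contraction and the TGF-beta response, 23 were lower with IL-33/13 and 1 (Smad7) higher, and 23 were lower with median-ratio scaling too; the median was -0.73 and 8 fell at least 2-fold. Acta2, smooth muscle actin of myofibroblasts, had 762, 735 and 744 TPM with IL-33/13 and 1955, 1993 and 1915 TPM in untreated cultures (-1.39 ± 0.04, adjusted p 1.5e-10), and 1351 ± 11.1 TPM with IL-33. Acta1, the skeletal actin, had 4.61, 3.15 and 2.37 TPM against 25.0, 27.4 and 29.9 TPM (-2.73 ± 0.25). Cnn1, calponin, fell by 1.61 ± 0.04 and Myh11, smooth muscle myosin, by 1.6 ± 0.06. Of 8 tested markers of smooth muscle and pericytes 7 were lower, 5 of them at least 2-fold, and these share Cnn1, Myh11 and Actg2 with the contractile genes. The part of these other cell types in the fall was not tested.

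Tgfb2, Tgfb3 and many matrix genes were lower too, whereas Tgfb1 was higher. Tgfb2 had 1.20, 1.31 and 1.36 TPM with IL-33/13 and 8.93, 8.72 and 10.5 TPM in untreated cultures (-2.18 ± 0.09, adjusted p 1.8e-09), and Tgfb3 47.9, 49.4 and 47.1 TPM against 184.5, 180.1 and 188 TPM (-1.91 ± 0.04). Tgfb1 had 169, 176 and 174 TPM against 141, 132.5 and 128 TPM (0.37 ± 0.05, adjusted p 0.00015). Bmp2 rose by 1.43 ± 0.18. Over the list, 8 of 30 were higher and 13 lower, and with median-ratio scaling 13 were higher and 9 lower (7 and 9 with the set term), so no direction is given for the pathway. Beside these and the counts below, 15% of all tested genes were higher and 36.9% lower on the deposited scale. The background was 25.3% and 23% with median-ratio scaling, and 9.63% and 17.3% with the set term. Of 33 fibrillar collagens and other matrix genes 25 were lower and 5 higher (median -0.49), and 23 lower and 7 higher with median-ratio scaling. Col6a3 fell most, with 32.1 to 32.4 TPM against 136 to 144 TPM (-2.09 ± 0.04, adjusted p 7.3e-13), whereas Col1a1 had 4060, 4084 and 3938 TPM against 6501, 6440 and 5380 TPM (-0.60 ± 0.10, adjusted p 0.00036). Tnc, tenascin-C, rose (0.82 ± 0.03), as did periostin. The CCN proteins Ccn5 and Ccn4, targets of Wnt signalling, fell by 2.50 ± 0.05 and 1.67 ± 0.08. Both were below IL-33 alone (-1.74 and -1.31). Among integrins and adhesion molecules 16 of 24 were lower and 5 higher, and 11 lower and 5 higher with the set term. Without the 3 members that reached 1 TPM in 1 group only, 14 of 21 were lower and 4 higher. The collagen-binding Itga11 had 2.34, 2.16 and 2.57 TPM with IL-33/13 and 14.9, 15.2 and 16.3 TPM in untreated cultures (-2.30 ± 0.07).

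Interferon-stimulated genes fell almost throughout, 27 of 29 tested lower and 1 (Gbp7) higher with a median of -0.68, and 27 lower with median-ratio scaling. With the set term 22 were lower. Ifit1 had 1.69, 1.77 and 2.03 TPM with IL-33/13 and 10.2, 10.8 and 9.54 TPM in untreated cultures (-1.98 ± 0.21, adjusted p 9.5e-06), and Ifi44 fell by 1.93 ± 0.09. Ifit3 fell by 2.53 ± 0.25, a value that is uncertain because near-identical copies of the gene exist. Cxcl10, an interferon-induced chemokine for T cells, had 2.29, 3.79 and 3.14 TPM against 5.29, 10.6 and 4.72 TPM (-0.89 ± 0.27, adjusted p 0.015), with an adjusted p of 0.18 under the set term. It was also below IL-33 alone (-1.43, adjusted p 0.0021).

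Genes of division and of sterol synthesis rose by smaller amounts. Of 40 cell cycle genes 25 were higher and 2 lower (median 0.27), and 33 higher and 1 lower with median-ratio scaling. Cdc20, an activator of mitotic exit, had 155, 150.2 and 138 TPM with IL-33/13 and 71.2, 76.9 and 75.4 TPM in untreated cultures (0.98 ± 0.06, adjusted p 7.2e-08). Rrm2, a subunit of ribonucleotide reductase, rose by 0.93 and Aurkb by 0.80, while the inhibitor Cdkn1b fell by 0.79. Of 22 genes of cholesterol synthesis and uptake 16 were higher and none lower (median 0.26), led by Mvd (1.20 ± 0.12) and Pmvk (0.98 ± 0.14) of the mevalonate pathway. Of 29 growth factors 12 were higher and 10 lower, and 16 higher and 7 lower with median-ratio scaling. With the set term 15 were higher and 7 lower. Over all tested genes, 15% were higher and 36.9% lower on the deposited scale. Angptl4 rose by 2.01 ± 0.05 and the EGF receptor ligands Hbegf and Ereg by 1.86 ± 0.04 and 1.74 ± 0.09. Igfbp3, a binding protein of insulin-like growth factors, had 320.4, 324 and 302 TPM with IL-33/13 and 90.2, 97.2 and 91.8 TPM in untreated cultures (1.75 ± 0.06), and was 1.71 above IL-33.

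Several changes stood outside the lists. Serpina3g, a serine protease inhibitor with near-identical copies, had 578, 572 and 573 TPM against 14.5, 15.3 and 12.9 TPM (5.24 ± 0.07), a value that those copies make uncertain. Pappa, a protease that frees insulin-like growth factors from their binding proteins, had 3.34, 3.34 and 3.43 TPM with IL-33/13 and 22.3, 21.5 and 23.1 TPM in untreated cultures (-2.42 ± 0.09). Cav1, the coat protein of caveolae, fell by 2.20 ± 0.09 and Dio3, which inactivates thyroid hormone, by 2.20 ± 0.17. The short predicted gene Gm20403 led the genes that fell, but rests on 2 to 4 reads in each untreated library and none with IL-33/13. The proteoglycan Aspn (asporin) fell by 2.64 ± 0.15, with 1.59 to 2.06 TPM against 14.1 to 18.9 TPM.

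**Figure D5:**
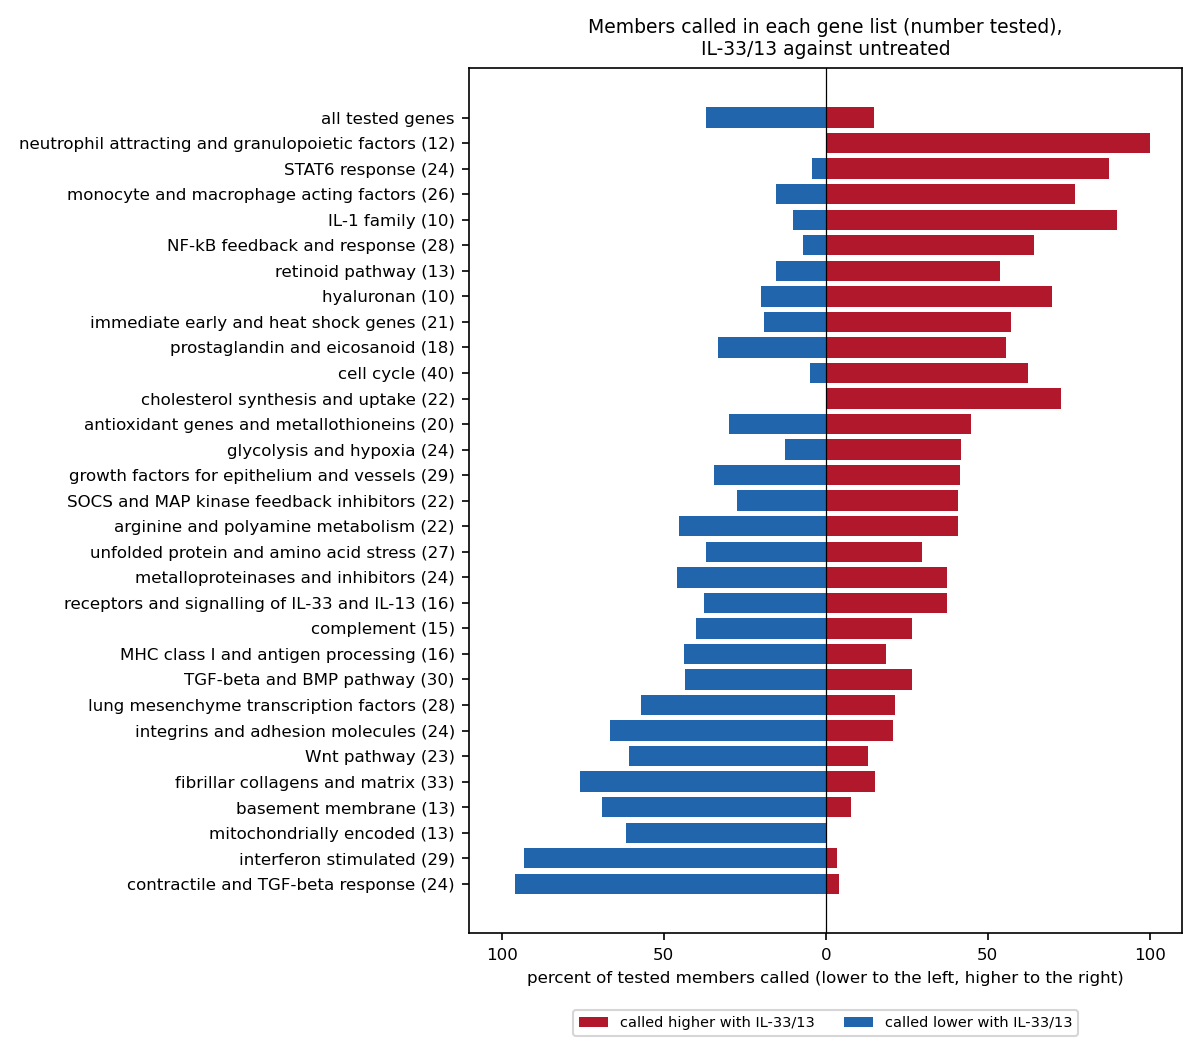
Percent of tested members called lower (left) and higher (right) with IL-33/13 than in untreated cultures for each list with at least 10 tested members, number tested in brackets, ordered by median change, with all tested genes (15% higher, 36.9% lower) at the top. Neutrophil factors (12 of 12 higher) and contractile genes (23 of 24 lower) are the extremes.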

How the data were processed

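RNA of 15 libraries was sequenced on a NovaSeq instrument after isolation with an RNeasy kit, per the labels' protocols. The deposited values are TPM for 18078 Ensembl genes, with gene models per the file headers, and HISAT2 and build mm10 are named in the submitters' processing notes. The tool that made TPM from alignments, its use of strand and its rule for reads that match several genes do not appear in the sources used here. The length behind TPM is the gene span, introns included, as read from the values: TPM multiplied by the span given per the file headers was a whole multiple of 1 constant per library for 88.8% to 90.3% of the low values (tolerance 0.03 of a read, up to 100 reads). Levels of different genes thus depend on intron length, and exon lengths came from GENCODE vM21, where 18062 of the genes were found.

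Tested genes (1 TPM reached by 3 or more of the 6 libraries) were fitted with limma 3.58.1 (R 4.3.3, trend and robust options) on log2(TPM + 1), a scale that shrinks the change of low genes. The fit held a mean for each of the 5 groups over all 15 libraries, and p-values were Benjamini-Hochberg adjusted over all 13261 genes and called under 0.05. Contrasts were IL-33/13 against untreated and against IL-33. Sums per library were compared with a two-sided exact permutation test, whose smallest p is 0.1. Intervals on ratios of reads are exact and cover counting error only. Tables were handled in Python 3.11.15 with scipy 1.17.1, pandas 2.3.3 and numpy 2.4.6. The test was checked on simulated data. No libraries were identical. The alternatives were other pseudocounts, filters and scalings, only the 6 libraries, no trend or robust option, the set term, leaving out each library, and recovered reads tested with voom. The labels give no replicate numbers, cultures or animals, so replicates were numbered in accession order and p-values measure only the spread between libraries, which may be technical.

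The named genes were the 15 that rose and the 15 that fell most among called protein-coding genes with 5 TPM or more in a group and no overlap of libraries, the 4 called members of each list with the largest change, and a set of key genes; Bcl6, Smad7, Gbp7, Spp1, Mif, Tgfb1, Chil3, Retnla and Clec10a were named after their values were seen. The members, the 41 lists (814 genes, 676 tested) and the key genes were chosen with earlier results of these data known. Lists were described by counts and medians without a set test. Promoter sequences are RefSeq windows on GRCm38.p6.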

Additional observations from a re-analysis of the deposited data

How the results depend on the processing

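No paired analysis was possible because the labels carry no replicate numbers. All counts below are of genes called with IL-33/13, first against untreated cultures and then against IL-33. Against untreated, the counts higher and lower were 3350 and 3050 with median-ratio scaling and 1277 and 2296 with the set term. Reads tested with voom called 3290 higher, and the set term with median-ratio scaling 1571 lower. Counts of 2-fold calls were 162 higher and 101 lower with a pseudocount of 5, 422 lower with 0.1, 452 higher on reads, and 165 lower with the set term and median-ratio scaling. Against IL-33, the counts higher and lower were 2313 and 2060 with median-ratio scaling, 662 and 768 with the set term, and 859 and 690 with both, and 2411 were higher on reads. The 2-fold calls against IL-33 were 67 higher and 19 lower with a pseudocount of 5, 113 lower with 0.1, 92 higher with a filter of 5 TPM, 92 higher and 40 lower with the set term, 102 lower on reads, and 35 lower with the set term and median-ratio scaling. Leaving out each library in turn gave 1667 to 1831 higher and 4025 to 4498 lower against untreated. The cause of these differences was not tested. The voom test, TPM over exon length, and the set term with median-ratio scaling were chosen after seeing the data. The set behind the set term was itself drawn from the mitochondrial shares seen in these libraries.

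No gene called in 1 direction on the deposited scale was called in the other under any single alternative; with the set term and median-ratio scaling together, 2 genes called lower were called higher. Of 170 named genes, 156 kept direction and call with the set term, 163 with median-ratio scaling and 165 on reads. Signs turned for 3 genes. The class I gene H2-K1, lower on the deposited scale, had 0.13 with the set term and 0.21 with both. The change of Il13ra1, not called, was 0.10 with median-ratio scaling, 0.11 with the set term, 0.18 with both, 0.10 on reads, 0.0047 over exon length and -0.0631 to 0.016 when 1 library was left out. Il7r had 0.075 with the set term and median-ratio scaling. Depth limits Lcn2, Csf2, Csf3, Msx3 and Ccl24, whose untreated values rest on 1 to 4 reads in all. It also limits Ccl20 (9 untreated reads) and Nos2 (10 untreated reads).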
